A study of Homo sapiens with 6 samples.

Results

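The genes HLA-B, HLA-C, HLA-E, HLA-F, B2M, TAP1, TAP2, HLA-DRA and CD74, which load peptides onto HLA molecules and display them at the cell surface, were examined in pancreatic cancer xenografts after treatment with the oral iron chelator deferasirox (DFX). Every non-control spot that the array annotates with 1 of these 9 symbols was taken, which gave 14 probes out of 50599, for 9 of the 34423 gene names on the array. The tumors were grown from BxPC-3, an established human pancreatic adenocarcinoma cell line, under the skin of nude mice. Nude mice lack a thymus and mature T cells, and the stroma and vessels of such a tumor come from the mouse. In the DFX group (3 tumors) the animals received 200 mg/kg DFX in saline by gavage every second day, 3 times per week, for 21 days, and in the control group (3 tumors) they received the vehicle, both from a tumor volume of 150 mm3. RNA of 1 tumor was hybridized to each of 6 one-colour arrays of human 60-base probes, which could also bind mouse RNA of the host.

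HLA class I molecules consist of a heavy chain, encoded by genes such as HLA-B, HLA-C, HLA-E and HLA-F, and of the light chain beta-2-microglobulin, encoded by B2M. TAP1 and TAP2 form the transporter that carries peptides from the cytosol into the endoplasmic reticulum, where they are loaded onto class I molecules for display to CD8 T cells or natural killer cells. HLA class II molecules, such as the pair of HLA-DRA and an HLA-DRB chain, present peptides to CD4 T cells and need the invariant chain CD74 during assembly. Class I genes are active in most nucleated cells, class II genes mainly in professional antigen-presenting cells, and both groups are induced by interferon gamma, the class II genes through the transactivator CIITA.

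Among the class I heavy chain probes 3 overlap on the genome, and their sequences set how far they can be read as separate genes. HLA-B probes A_33_P3424800 and A_33_P3379947 and HLA-C probe A_33_P3424803 overlap over 41 bases, at chr6:31321663-31321703 on hg19 (minus strand, the HLA-B locus in the array annotation). They are shown over the same 30 bases, chr6:31321672-31321701, which hold the 1 base that differs among them in the overlap. The capital marks that base.
HLA-B A_33_P3424800: agtcaattcctggaaGttgagagagcaaat
HLA-B A_33_P3379947: agtcaattcctggaaTttgagagagcaaat
HLA-C A_33_P3424803: agtcaattcctggaaGttgagagagcaaat
Counted from the 5′ end of this stretch, A_33_P3379947 differs from the other two by G16T. The transcripts that the array lists for both HLA-B probes include HLA-C, so these 3 probes could not be assigned to a single gene and were kept apart from the second HLA-C probe, A_33_P3330109 (chr6:31236617-31236676, minus strand), for which the array lists HLA-C alone.

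The probe of B2M was spotted 10 times on each array and lies at chr15:45007773-45007832 (hg19, plus strand), from base 279 of its transcript. CD74 was measured at chr5:149792222-149792281 (minus strand), and HLA-DRA at chr6:32412448-32412507 (plus strand). The probe of HLA-DRB1, the partner chain of HLA-DRA, is added for the class II results. It was spotted 10 times at chr6:32548524-32548583 (minus strand), and the array lists HLA-DRB3 for it too.
B2M A_23_P37441: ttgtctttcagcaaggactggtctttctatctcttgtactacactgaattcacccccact
CD74 A_23_P70095: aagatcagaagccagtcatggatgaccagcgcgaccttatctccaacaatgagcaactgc
HLA-DRB1 A_24_P343233: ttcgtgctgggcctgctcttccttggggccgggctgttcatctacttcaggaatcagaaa

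The antigen presentation genes showed no difference between the groups that passed limma's test. Of the 14 probes, 13 passed the detection filter, under which a spot must differ from its background at p under 0.05 on each of the 6 arrays, and were tested. None of the 13 had an unadjusted p under 0.05, against 8.41% of all 31807 tested probes. With p-values adjusted by Benjamini-Hochberg over the whole array, limma called 0 of the 13 (adjusted p of 0.644 to 0.989) and 0% of all probes. The log2 fold change was above 0 for 9 probes and below 0 for 4, with a median of 0.12. The groups did not overlap for 2 of the 13 probes (15.4%), against 15.5% of all tested probes. These were 1 HLA-B probe, higher with DFX (6.34% of all probes), and B2M, lower with DFX (9.15%). Values are quantile-normalized log2 intensities, on which a difference of 1 is a 2-fold difference, and levels of different probes are not comparable. The tumors came from separate mice, and all p-values measure the spread among these 6 tumors. In bulk tumors, fewer cells that express a gene and less RNA of it per cell cannot be told apart. All 6 arrays lay on 1 slide, row 1 holding the controls and row 2 the tumors given DFX, so row and treatment cannot be told apart.

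**Figure D1:**
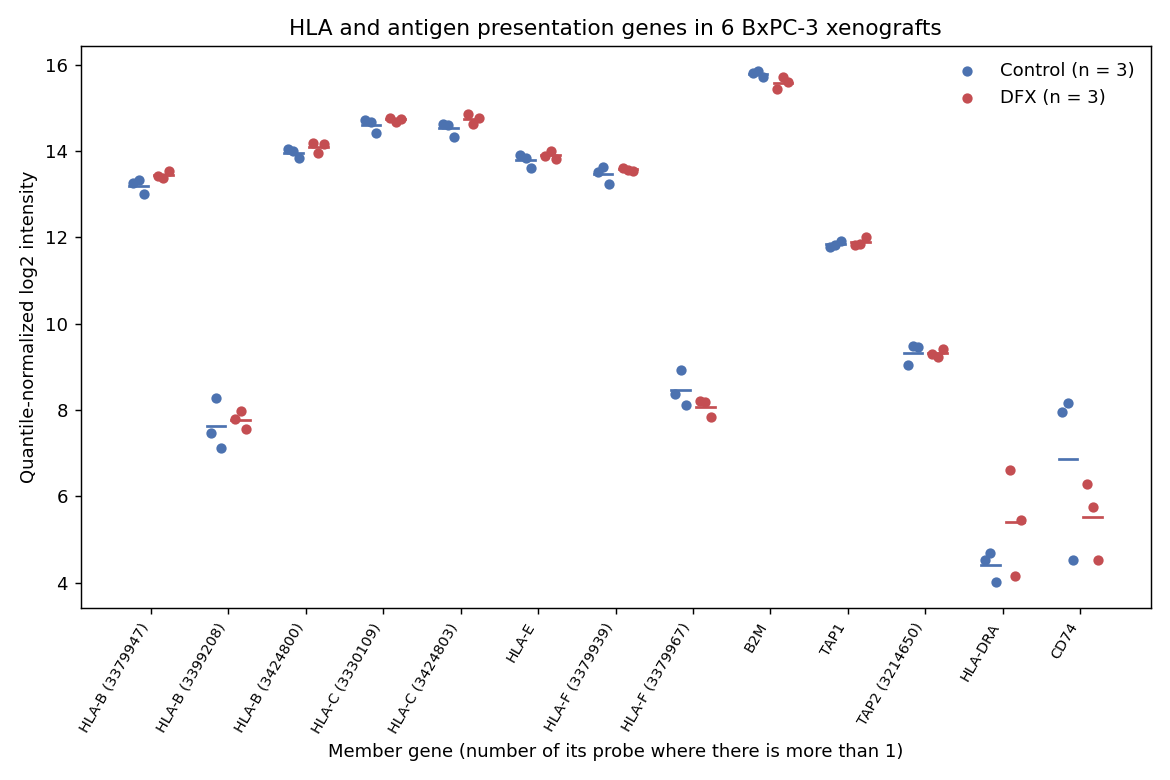
Quantile-normalized log2 intensity of the 13 tested probes of the 9 genes, with 1 point per tumor (blue, control; red, DFX; tumors 1 to 3 from left to right in each group) and a line at each group mean. The bright class I probes and TAP1 lie within narrow bands, the dimmer HLA-B and HLA-F probes range from 7.12 to 8.29 and from 7.85 to 8.94, and CD74 ranges from 4.52 to 8.15 and HLA-DRA from 4.005 to 6.61. Levels of different probes cannot be compared.

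The 6 bright class I heavy chain probes differed little between the tumors, while a dim probe of HLA-B and a dimmer probe of HLA-F varied more. The HLA-B probe A_33_P3379947 read 13.27, 13.33 and 13.001 in the controls and 13.42, 13.38 and 13.55 with DFX. Each tumor given DFX lay above each control. The log2 fold change was 0.25 (standard error 0.13, 95% confidence interval -0.06 to 0.57, unadjusted p = 0.0996 and adjusted p = 0.644 from limma). The tumors on slide column 2 (Control 1 and DFX 2) differed by 0.11 and those on column 4 (Control 3 and DFX 3) by 0.55. The HLA-B probe A_33_P3424800 overlaps it in part and differs from it by 1 base in the stretch shown above. It read 14.05, 14.01 and 13.84 in the controls and 14.19, 13.95 and 14.17 with DFX. Its groups overlapped, with DFX 2 below Control 1 and Control 2, and the log2 fold change was 0.14 (standard error 0.12).

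HLA-C, whose product is a main ligand of inhibitory receptors on natural killer cells, was measured by A_33_P3330109, which read 14.73, 14.67 and 14.42 in the controls against 14.78, 14.69 and 14.76 with DFX. A_33_P3424803, which the array annotates as HLA-C but which lies with the HLA-B probes and could not be assigned to 1 gene, read 14.64, 14.62 and 14.33 against 14.87, 14.63 and 14.76. In both, Control 3 was the lowest tumor and the groups overlapped. Their log2 fold changes were 0.14 (standard error 0.12) and 0.22 (standard error 0.13).

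HLA-E, which presents peptides from other class I leader sequences to natural killer cells, read 13.90, 13.85 and 13.61 in the controls and 13.89, 14.00 and 13.82 with DFX (chr6:30460729-30460788, plus strand). Its log2 fold change was 0.12, with a 95% confidence interval of -0.19 to 0.42. HLA-F, a class I molecule that is largely kept inside resting cells, had 2 probes with opposite signs. The bright one, A_33_P3379939 (chr6:29693280-29693338), read 13.52, 13.63 and 13.23 against 13.62, 13.57 and 13.54, a log2 fold change of 0.11 (standard error 0.13). The dimmer one, A_33_P3379967 (chr6:29692114-29692173), lies upstream in the same gene and read 8.37, 8.94 and 8.11 against 8.20, 8.18 and 7.85, a log2 fold change of -0.40 (standard error 0.24, 95% confidence interval -0.98 to 0.18). In both probes the groups overlapped. The array lists the pseudogene HLA-H as well as HLA-F for the bright probe, and HLA-F alone for the dimmer probe. Both sequences are given, since the probes of this 1 gene moved apart.
HLA-F A_33_P3379939: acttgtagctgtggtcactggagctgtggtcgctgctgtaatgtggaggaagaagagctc
HLA-F A_33_P3379967: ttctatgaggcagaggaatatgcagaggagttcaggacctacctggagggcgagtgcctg

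The remaining HLA-B probe, A_33_P3399208, which the array leaves unmapped, was dim and variable. It read 7.46, 8.29 and 7.12 in the controls and 7.79, 7.98 and 7.57 with DFX, and its log2 fold change of 0.15 had a standard error of 0.31. Its sign was negative, at -0.10, without Control 3. Over the 6 bright heavy chain probes, those with a mean log2 intensity over 13, the fold changes were 0.11 to 0.25, and their 95% confidence intervals together ran from -0.21 to 0.57. On the linear scale these ends are ratios of 0.862 and 1.48, so that for each of these probes a change as large as 1.5-fold lay outside its interval.

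**Figure D2:**
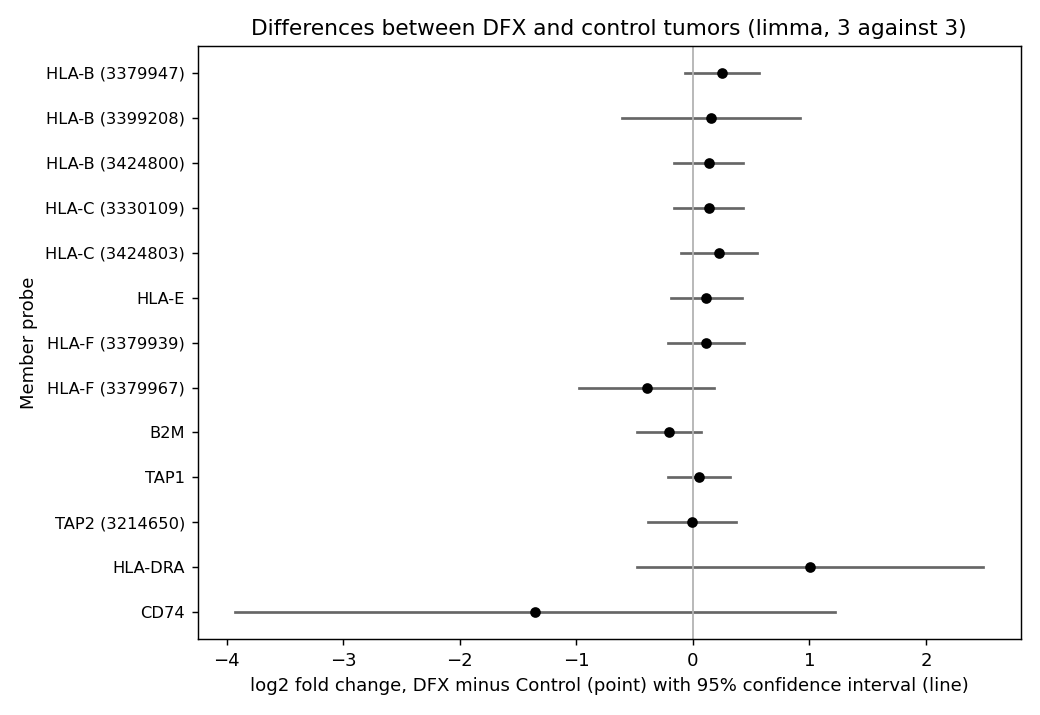
Log2 fold change of each tested probe, DFX minus control (point), with its 95% confidence interval from limma (line, 3 tumors against 3). All 13 intervals include 0. Those of the bright class I probes lie between -0.21 and 0.57, while that of CD74 runs from -3.93 to 1.22.

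The 6 bright heavy chain probes varied together over the tumors. Pearson's r between pairs of them was 0.44 to 0.95, with a median of 0.83 over 15 pairs and 6 tumors, given as a description, since 3 of the probes share sequence and all share the same arrays. Control 3 stood low in most of these probes. It had the lowest of the 6 values in 8 of the 13 tested probes, where 20.2% of all probes without a missing value had their lowest value in Control 3. It had the lowest of the 3 control values in 11 of 13. TAP1 and TAP2 were the exceptions.

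B2M, the light chain of class I molecules, was the only bright class I gene among the 9 with lower values after DFX. It read 15.81, 15.85 and 15.73 in the controls and 15.45, 15.71 and 15.60 with DFX. Control 3, the lowest control, was at 15.726 and DFX 2, the highest tumor given DFX, was at 15.714. The spots of the probe overlapped between these tumors, from 15.67 to 15.79 in Control 3 and from 15.67 to 15.75 in DFX 2, and no B2M spot was saturated. The SD over the 10 spots of an array was 0.022 to 0.047. The log2 fold change was -0.21 (standard error 0.11, 95% confidence interval -0.48 to 0.07, unadjusted p = 0.118 and adjusted p = 0.661 from limma). It was -0.09 within slide column 2 and -0.13 within column 4. The sign was negative under all 20 alternatives, with values of -0.32 to -0.14. B2M passed an unadjusted threshold of 0.05 under 4 of them, which were normexp background correction, the raw mean signal, array quality weights and the Kruskal-Wallis H test. The last passes whenever groups of 3 do not overlap, and an exact two-sided permutation test of 3 against 3 tumors cannot go below 0.1.

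Heavy chain and light chain were therefore also compared on the same array, a comparison chosen after the values had been seen. The log2 ratio of each bright heavy chain probe to B2M was higher in every DFX-treated tumor than in every control tumor, for all 6 probes, against 18.7% of all tested probes compared with B2M in the same way. The differences of the group means were 0.32 to 0.46. Since a ratio to B2M carries the values of B2M into each comparison, the 6 probes are not independent of each other. The 6 probes were higher without overlap under each of 5 other ways of making the values, with differences of 0.30 to 0.47. With a tumor left out, which cannot bring about an overlap, the differences were 0.23 to 0.56. For HLA-B A_33_P3424800, DFX 2 and Control 1 were equal to 2 decimals, at a log2 ratio of -1.76, so that this separation is smaller than the spread between the spots of B2M.

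**Figure D3:**
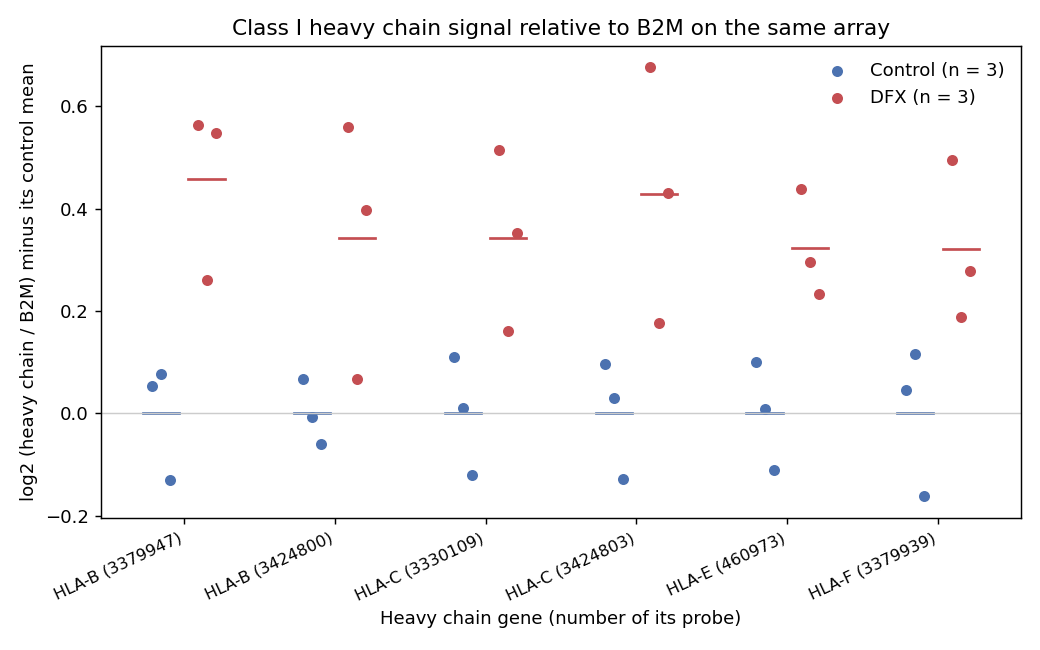
Log2 ratio of each bright heavy chain probe to the B2M probe on the same array, minus the mean of that ratio in the control tumors (blue, control; red, DFX; n = 3 each; lines, group means). All red points lie above all blue points of the same probe, and the red lines lie at 0.32 to 0.46.

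The peptide transporter was even across the tumors. TAP1 (chr6:32813210-32813269, minus strand) read 11.79, 11.83 and 11.93 in the controls and 11.84, 11.85 and 12.02 with DFX. Its log2 fold change was 0.05 (standard error 0.11, 95% confidence interval -0.21 to 0.32), and its residual SD ranked at the 10.4th percentile of all tested probes. TAP2 was measured by A_33_P3214650 (chr6:32793222-32793281), which read 9.05, 9.48 and 9.47 in the controls and 9.31, 9.23 and 9.42 with DFX. Its log2 fold change was -0.01 (95% confidence interval -0.39 to 0.37), and its residual SD ranked at the 42.2th percentile. The other TAP2 probe, A_23_P368067 (chr6:32789804-32789863), was not well above background on any array and was not tested.

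The 2 class II members were the most variable of the 9 genes. CD74, the invariant chain, read 7.95, 8.15 and 4.52 in the controls, and after DFX 6.29, 5.75 and 4.52. Control 1 and Control 2 stood highest, and Control 3 and DFX 3 lowest. The probe was well above background on all 6 arrays. Its log2 fold change was -1.35 with a standard error of 1.05, and the 95% confidence interval of -3.93 to 1.22 covers both a large fall and a rise (unadjusted p = 0.246 and adjusted p = 0.739 from limma). The residual SD ranked at the 99.7th percentile of all tested probes. Single tumors moved the log2 fold change in both directions. It was -2.53 without Control 3 (unadjusted p = 0.00580 from limma), and -0.71 without Control 2, -0.82 without Control 1 and -0.85 without DFX 3, with unadjusted p of 0.508 to 0.554 from limma. It was -0.87 under normexp background correction and -0.82 on raw mean signals. Within slide column 2 the difference was -2.20, and within column 4 it was -0.0049.

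HLA-DRA, the invariant alpha chain of HLA-DR, was faint and did not follow CD74. It read 4.51, 4.70 and 4.005 in the controls and 6.61, 4.16 and 5.46 with DFX. DFX 1 and DFX 3 were above all controls and DFX 2 was below 2 of them and not well above background. The log2 fold change was 1.01 (standard error 0.61, 95% confidence interval -0.48 to 2.49, unadjusted p = 0.149 and adjusted p = 0.681 from limma). Single tumors moved it in both directions, to 1.63 without DFX 2 (unadjusted p = 0.00950 from limma) and to 0.40 without DFX 1 (unadjusted p = 0.398 from limma). It was 0.45 under normexp background correction and 0.36 on raw mean signals.

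Among the class II beta chains, which are not members of the 9 genes, HLA-DRB1, HLA-DQB1 and HLA-DPB1 shared with CD74 the high values of Control 1 and Control 2. HLA-DRB1 read 12.74, 12.65 and 8.998 in the controls and 10.72, 10.10 and 9.90 with DFX, with an SD of 0.024 to 0.049 over its 10 spots on an array. HLA-DQB1, by its brightest probe, read 13.56, 13.46 and 9.35 against 11.17, 10.82 and 10.40. HLA-DPB1, by its brightest probe, read 10.19, 10.01 and 6.07 against 7.80, 7.65 and 7.11. In these 3 probes Control 1 and Control 2 were highest and Control 3 was lowest, with the DFX-treated tumors between. DFX 3, level with Control 3 in CD74, was above it by 0.90 in HLA-DRB1, 1.05 in HLA-DQB1 and 1.04 in HLA-DPB1. The beta chains HLA-DRB3 and HLA-DOB, whose values are given with the pathway lists, did not take this order. In HLA-DRB3 all DFX-treated tumors lay below Control 3, and HLA-DOB was well above background in Control 3 but in no DFX-treated tumor. The alpha chain HLA-DPA1 read 8.04, 7.84 and 7.35 in the controls against 8.15, 8.51 and 7.84 with DFX, by its brightest probe. HLA-DOA read 4.40, 3.95 and 8.30 against 5.11, 4.76 and 4.90, highest in Control 3. The brightest HLA-DMA probe was highest in DFX 1, and another, A_24_P50245, in Control 1 and Control 2. A dim HLA-DQB1 probe, A_23_P136683, read 6.20, 5.30 and 3.83 against 5.42, 5.67 and 4.49. A faint HLA-DPB1 probe, A_33_P3271634, read 3.53, 2.88 and 4.34 against 2.97, 4.25 and 3.59, highest in Control 3. Another HLA-DPB1 probe, A_33_P3271635, kept the order of the brightest. The mean of Control 1 and Control 2 exceeded Control 3 by 11.6-fold for CD74, 12.9-fold for HLA-DRB1, 16.3-fold for HLA-DPB1 and 17.8-fold for HLA-DQB1. Pearson's r between pairs of these 4 probes was 0.967 to 0.999 over the 6 tumors, as a description of probes that share the same arrays. The 3 beta chains had log2 fold changes of -1.33 to -1.22 with standard errors of 1.03 to 1.15, and none passed an unadjusted p of 0.05 in limma. CIITA, the transactivator of class II genes, was not well above background on any array with either of its 2 probes.

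**Figure D4:**
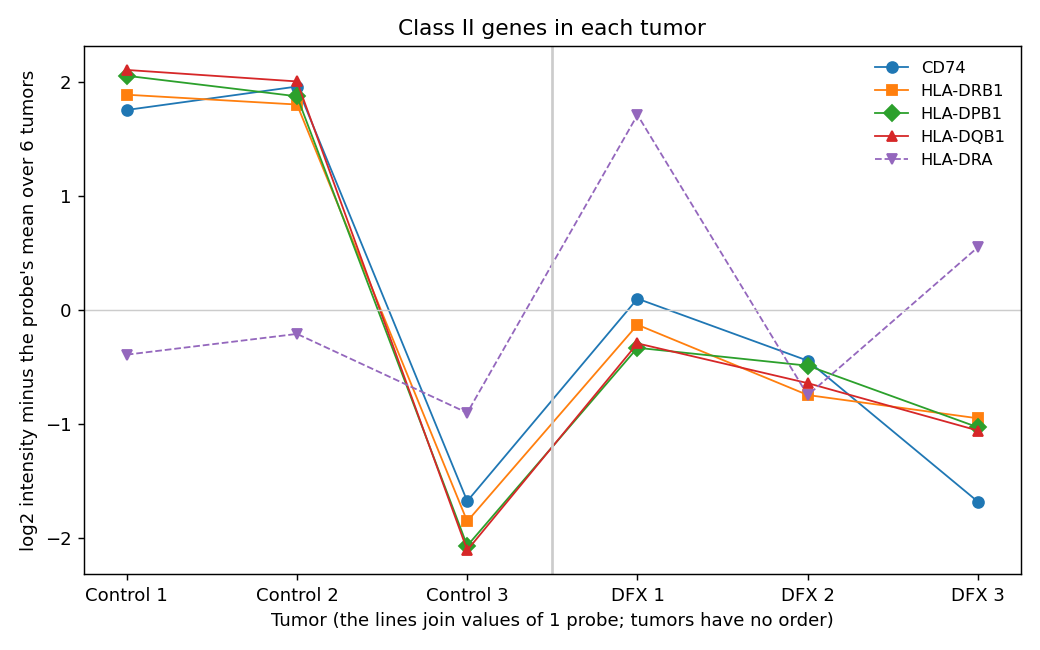
Log2 intensity of CD74, HLA-DRB1, HLA-DPB1, HLA-DQB1 and HLA-DRA in each tumor, minus the mean of the probe over 6 tumors. Lines join the values of 1 probe and imply no order. CD74 and the 3 beta chains are highest in Control 1 and Control 2, while HLA-DRA (dashed) is highest in DFX 1.

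Markers of other cells were set beside these values. No tested probe passed the adjusted threshold, and for gene lists a call is from here on an unadjusted limma p under 0.05. Over all 22718 tested genes, each by its brightest tested probe, 7.98% were called, 3.68% higher and 4.29% lower. The linear intensities of each marker list were summed and the sum is given on the log2 scale, so that bright probes weigh most. Fibroblast markers had their highest sums in Control 1 and Control 2 too, at 14.16 and 14.49. Their sum was 13.76 in Control 3 and 13.64 to 13.95 with DFX. Of 8 tested fibroblast markers DCN and PDGFRA were called lower without adjustment, at log2 fold changes of -1.30 and -1.12, and LUM was called higher at 0.87. The summed leukocyte markers were 14.12 to 14.36 in the controls and 13.95 to 14.37 with DFX, and 14 of 20 listed genes were tested, 1 of which was called, lower. No array had CD2, CD53, CSF1R, ITGAX or MS4A1 well above background. Endothelial markers summed to 9.05 to 9.96 in the controls and 9.24 to 9.36 with DFX, and 1 of 5 tested genes was called, higher. Carcinoma epithelial markers, which are known of cells such as BxPC-3, were well above background on all 6 arrays for all 10 listed genes, with sums of 19.65 to 19.72 in the controls and 19.72 to 19.74 with DFX. KRT8, KRT18 and EPCAM were called higher without adjustment, with log2 fold changes of 0.48, 0.27 and 0.43. The part of any of these cells in the class I and class II values was not tested.

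The other genes of both pathways were read from 4 fixed lists, each gene by its brightest tested probe. Calls are again unadjusted, to be read against 7.98% of all tested genes, whose median log2 fold change was -0.01. The other class I pathway genes, 16 of 16 tested, held 0 calls and a median of 0.03. Among them the peptide loading genes TAPBP and CALR had log2 fold changes of 0.10 and 0.22, and the immunoproteasome subunits PSMB8, PSMB9 and PSMB10 had -0.11, -0.35 and 0.11. For NLRC5, the transactivator of class I genes, the log2 fold change was 0.07 (standard error 0.27), and for IRF1 0.03 (standard error 0.15).

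The other class II pathway genes, 14 tested of 19 listed, held 3 calls (21.4%), 1 higher and 2 lower, with a median of -0.34. IFI30, a lysosomal thiol reductase that helps unfold antigens, read 10.89, 10.91 and 10.97 in the controls and 11.22, 11.34 and 11.22 with DFX. The groups did not overlap, and the log2 fold change was 0.33 (standard error 0.10, unadjusted p = 0.0145 and adjusted p = 0.526 from limma). HLA-DRB3, a DR beta chain, read 9.19, 8.89 and 8.75 against 8.16, 8.60 and 8.37, with log2 fold change -0.57 (standard error 0.17, unadjusted p = 0.0177 and adjusted p = 0.536 from limma). HLA-DOB, part of a regulator of class II loading, exceeded background clearly in 3 of 3 controls and in 0 of 3 tumors given DFX. It read 5.49, 4.80 and 4.87 in the controls and 4.25, 4.64 and 4.62 with DFX. The log2 fold change was -0.55 (standard error 0.22, confidence interval -1.10 to -0.0076, unadjusted p = 0.0478 and adjusted p = 0.591 from limma). Each DFX array was then given its lowest signal flagged as well above background, or the signal of HLA-DOB if that was higher. With those values HLA-DOB was 1.45-fold lower with DFX, a figure that leaves out the spread among the tumors and is no lower limit.

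The interferon response genes, 30 tested of 32 listed, held 0 calls and a median of -0.04. By its median the list ran against CD74, HLA-DRB1, HLA-DQB1 and HLA-DPB1 in Control 3, but its genes were split. IFI6 and IFIT1 had their highest values in Control 3, at 12.78 and 11.80. GBP2 and GBP5 had their lowest values there, at 8.51 and 4.23. The median deviation of this list from each gene's mean over the control tumors was 0.28 in Control 3, the highest of the 6 tumors. It was 0.14 in DFX 3 and -0.15 to -0.07 in the other 4 tumors. The stress ligands of natural killer cell receptors, such as MICA and the ULBP genes, had 6 tested genes, 0 calls and a median of 0.34, from -0.15 for MICA to 0.57 for RAET1E.

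**Figure D5:**
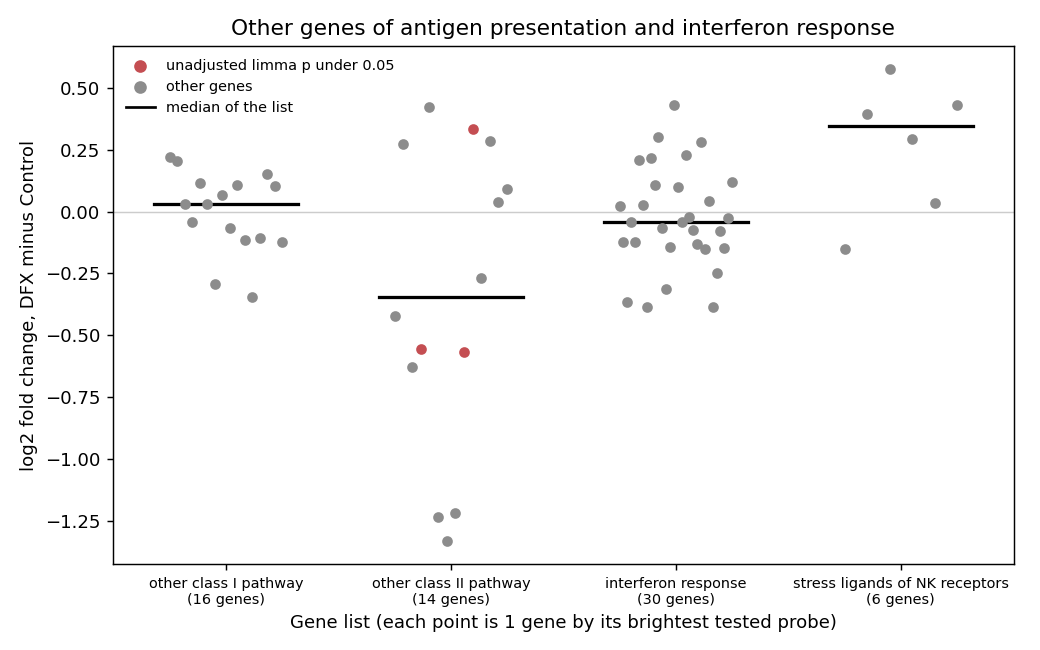
Log2 fold change, DFX minus control, of each tested gene in the 4 lists (points; red where the unadjusted limma p was under 0.05) with the median of each list (black line). Red points appear in the class II list only, at 0.33, -0.55 and -0.57, and the medians are 0.03, -0.34, -0.04 and 0.34.

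Promoter sequence was read for the 9 genes and for HLA-DRB1, HLA-DPB1 and HLA-DQB1, from the RefSeq table of GRCh38.p14. That table holds windows of 250 bases before to 50 bases after the start of 7 of the 9 genes. HLA-E and HLA-DRA have no window there. The windows were searched on both strands for the Y box CTGATTGG, which 3.97% of all 35116 windows hold. They were also searched for TGACG, the core of a CREB site (24.6%), and for GAAANNGAA, a core of an interferon-stimulated element (8.11%). The Y box was found in HLA-B, HLA-C, HLA-F and B2M, starting 52 to 57 bases before the start site, in HLA-DRB1 49 and in HLA-DQB1 91 bases before it, and not in the windows of TAP1, TAP2, CD74 or HLA-DPB1. TGACG stood 106, 105 and 75 bases before the start of HLA-B, HLA-C and B2M and 35 before that of TAP2, and on the reverse strand 193 before that of HLA-DPB1 and 174 before that of HLA-DQB1. GAAANNGAA was found in HLA-F, B2M, TAP1, TAP2, CD74 and HLA-DRB1. Only these exact letters were searched, so a gene without a match may still hold a variant of the element. The stretch from 190 to 41 bases before the start is given for 5 genes, with the matches in capitals. The coordinates are chr6:31357220-31357369 for HLA-B, chr6:31272133-31272282 for HLA-C, chr15:44711327-44711476 for B2M, chr6:32589889-32590038 for HLA-DRB1 and chr6:32666698-32666847 for HLA-DQB1, on the minus strand except B2M.
HLA-B: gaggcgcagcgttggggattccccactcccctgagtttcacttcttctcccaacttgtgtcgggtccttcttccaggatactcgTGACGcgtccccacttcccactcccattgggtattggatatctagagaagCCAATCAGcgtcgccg
HLA-C: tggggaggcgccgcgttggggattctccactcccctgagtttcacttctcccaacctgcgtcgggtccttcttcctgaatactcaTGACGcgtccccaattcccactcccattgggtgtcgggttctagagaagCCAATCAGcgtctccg
B2M: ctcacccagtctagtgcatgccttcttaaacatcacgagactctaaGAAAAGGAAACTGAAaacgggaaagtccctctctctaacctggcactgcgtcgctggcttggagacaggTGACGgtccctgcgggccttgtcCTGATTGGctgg
HLA-DRB1: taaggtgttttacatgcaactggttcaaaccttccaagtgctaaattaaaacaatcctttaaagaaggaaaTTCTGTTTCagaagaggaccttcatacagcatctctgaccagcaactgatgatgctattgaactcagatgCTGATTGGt
HLA-DQB1: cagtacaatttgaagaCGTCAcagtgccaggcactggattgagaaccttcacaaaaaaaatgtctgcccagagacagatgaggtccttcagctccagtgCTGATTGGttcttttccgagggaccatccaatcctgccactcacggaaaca
A match describes letters in the reference and was not tested as a binding site, and the sequences of the tumors were not read.

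Likeness of pattern was measured over the 6 tumors against the mean centred profile of the members, each by its brightest probe if that was well above background on every array, among 8733 other genes. CD74 dominated that profile (r = 0.976). Of the 5 genes most like it, FAM49A (r = 0.981), APBA1 (r = 0.987), HLA-DQB1 (r = 0.975), HLA-DRB1 (r = 0.974) and an unnamed Ensembl transcript (r = 0.989), 2 were class II beta chains. These values describe 6 arrays.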

How the data were processed

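RNA of 6 xenografts of BxPC-3 cells was profiled, 3 treated with vehicle and 3 with 200 mg/kg DFX for 21 days, grouped by the sample labels. For each array the authors deposited the output of Agilent Feature Extraction, version 10.7.1.1 per the file headers (9.5.1.1 in the submitters' processing notes), with linear intensities, a background-subtracted signal and a p-value of each spot against its background, none normalized between arrays. A table of the authors' normalized intensities differed by a median of 0.00438% from quantile-normalized processed signals and was used as an alternative. The deposited intensity was log2-transformed here and quantile-normalized over 58717 non-control spots, dropping 1398 flagged spot values before the mean over the spots of each probe was taken. The 31807 of 50599 probes whose background p-value was under 0.05 on every array were tested in R 4.3.3 with limma 3.58.1 (lmFit, eBayes). p-values were adjusted by Benjamini-Hochberg over all tested probes.

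Gene names are those of the array design. Probe positions are on hg19, promoters on GRCh38.p14. The 9 genes and the gene lists were chosen with earlier results of these data known. Named genes were the 9 members, list genes with an unadjusted p under 0.05 and no overlap between groups, NLRC5, CIITA, IRF1 and the 5 genes most like the members in pattern. The other genes named, among them HLA-DRB1, HLA-DQB1, HLA-DPB1 and the markers, were picked with their values in view. The fit was tested on simulated data with known changes. Alternatives covered normalization, background correction, signal column, filters, flags, the deposited table, the test, blocks, array weights and each tumor left out. Some items are not reported here. Precision is limited by the 6 arrays, and 0 columns of other series were used.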

Additional observations from a re-analysis of the deposited data

How the results depend on the processing

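No member probe passed an adjusted p of 0.05 under any of the 20 alternatives. Of the 13 member probes, 0 were called unadjusted in limma, against 1 under normexp background correction, 2 on raw mean signals, 2 by the Kruskal-Wallis H test, 1 under array quality weights and 0 to 2 when a tumor was omitted. Groups did not overlap for 2 of them, against 5 under 75th percentile scaling (14.8% of all probes), 4 under median scaling (17.3% of all probes) and 2 to 6 when a tumor was omitted (22.1% to 28.5% of all probes, since fewer tumors overlap less often). Of all tested probes, 2675 were called unadjusted in limma, 4927 by the Kruskal-Wallis H test, 4213 under array quality weights and 1889 to 2717 when a tumor was omitted. The 4 pathway lists held 3 genes called unadjusted, against 5 under normexp, 6 on raw mean signals, 8 by the Kruskal-Wallis H test, 7 under array quality weights and 1 to 12 when a tumor was omitted. The median of the other class I pathway was -0.068 under median scaling, from 0.03. That of the other class II pathway, from -0.34, was 0.0089 without a filter on dim probes, -0.11 over probes well above background on every array, and -0.082 under array quality weights. That of the stress ligands, from 0.34, was 0.090 under normexp, 0.12 on raw mean signals, 0.18 by the mean over the probes of each gene, and 0.23 to 0.40 when a tumor was omitted. The sign changed for 4 member probes, each with a difference within its standard error. HLA-F A_33_P3379939 was at -0.0043 under median scaling and -0.0013 to 0.20 when a tumor was omitted, lowest without Control 3. TAP1 was at -0.060 under median scaling and -0.0088 without DFX 3, the latter the lowest of -0.0088 to 0.091 when a tumor was omitted. TAP2 A_33_P3214650 was at 0.012 under normexp, 0.018 on raw mean signals and -0.15 to 0.063 when a tumor was omitted, above 0 without Control 2, Control 3 or DFX 2. HLA-B A_33_P3399208 was at -0.082 under array quality weights and -0.095 to 0.49 when a tumor was omitted, lowest without Control 3. HLA-F A_33_P3379967 passed an unadjusted threshold of 0.05 without Control 3 only, at -0.58. Median scaling moved the median of all probes to -0.10. The cause of these moves was not tested. The replicate numbers do not pair the tumors, since the deviations of tumors with the same number correlated at 0.027, 0.027 and 0.016. With the number as a block, 0 member probes were called, 2 did not overlap and 7.61% of all probes were called. The unadjusted limma p of CD74 was 0.0551 with this block and 0.246 without it. HLA-DRA was near background and had no value when probes had to be well above background on every array.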

Other observations

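Some other HLA genes on the array were picked for mention with their values in view. HLA-G, which the class I list holds, had a log2 fold change of 0.12, and the pseudogene HLA-J 0.12. An antisense transcript of HLA-F, HLA-F-AS1, was measured by a probe that read 6.37, 6.17 and 5.46 in the control tumors and 5.64, 5.17 and 4.88 with DFX. The groups overlapped, and the log2 fold change was -0.77 (standard error 0.30, unadjusted p = 0.0438 from limma). The dimmer HLA-F probe also had a log2 fold change below 0, at -0.40. A second, brighter probe of HLA-F-AS1 was at -0.05 (standard error 0.11).

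The pattern of the class I heavy chains alone was compared with 8733 other genes in the same way, a choice made after the values were seen. EEF1DP3, LOC100506966, CLDN18, IYD and ANKS6 were most like it, with r of 0.993 to 0.997 over 6 tumors.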
